A study of Mus musculus with 2 samples.

Results

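Chemokines and their receptors were examined in the RNA-sequencing of Sox9GFPHi chondrospheres, cartilage-like colonies that each grew from a single sorted mouse cell. The genes were chosen by symbol alone (Ccl, Cxcl, Cx3cl1, Xcl1, Ccr, Cxcr, Cx3cr1, Xcr1 and Ackr, each with its number), which gave 42 of the 23628 genes listed. These were 25 ligands (13 Ccl, 11 Cxcl and *Cx3cl1*), 13 typical receptors and 4 atypical receptors. In these colonies the family was carried by a short list of genes. *Cx3cl1* and *Ccl9* were the highest ligands by the mean of the libraries (*Cxcl16* in replicate 1 alone), and *Ackr3* supplied most of the receptor reads. Of the 42 genes 18, among them many inflammatory ligands and leukocyte receptors, were listed at 0 in both libraries, beside 3400 of all 23628 genes. A further 18 mouse genes of these names in the annotation were not analysed here.

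The data are 2 libraries of 1 condition, replicate 1 and replicate 2, so levels and their spread are described and no groups were compared. The source was the femoral heads of postnatal day 7 pups that carry an EGFP reporter behind an IRES at *Sox9*, the gene of the master transcription factor of cartilage. Live cells with high GFP and without the blood and vessel surface proteins CD45, CD31 and Ter119 were sorted and grown for 3 to 4 weeks in 1% methylcellulose at 5% oxygen, in serum-containing medium with FGF2, BMP4, IGF1, LIF and TGF-β1. Both libraries share this reporter, sort and medium. The labels do not say which pups gave each library or on which day the RNA was taken.

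Chemokines are small secreted or membrane-bound proteins that guide migrating cells by binding G protein-coupled receptors. Inflammatory chemokines are made on demand, often downstream of NF-kB or interferon, whereas homeostatic chemokines such as Cxcl12 are made steadily by stromal cells and place leukocytes, progenitors and vessels within tissues. Atypical receptors bind chemokines without the usual G protein signal and take them up, so that they clear ligand and shape gradients. In cartilage and bone the family is best known from the recruitment of marrow cells and from joint inflammation, where chondrocytes both make chemokines and respond to them.

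Values are the deposited CPM, read counts scaled to the same library total, less a constant 0.0001 that every gene carried. From the smallest steps in the values, replicate 1 held about 43300000 reads on genes and replicate 2 about 42100000, so that 3 reads, taken here as the limit of detection, equal 0.0693 and 0.0712 CPM. The 10 chondrocyte markers were all above this limit, with a median of 2427 CPM over the means of the libraries. Of 13 leukocyte markers 3 were above it in both libraries (*Cd14* 2.68 and 3.42, *Cd68* 2.56 and 2.40, *Lyz2* 0.624 and 0.949 CPM in replicates 1 and 2), and their summed level was 5.94 and 6.91 CPM. Another 8, including *Adgre1*, *C1qa*, *Tyrobp* and *Itgam*, were at 0 in both, and *Ptprc*, which encodes CD45, had 1 and 2 reads. Of 8 endothelial markers 5 (*Cdh5*, *Kdr*, *Tek*, *Emcn*, *Tie1*) were at 0 in both and 3 were above the limit in both. *Pecam1*, which encodes CD31, had 0.231 and 0.166 CPM (10 and 7 reads), and *Egfl7* had 0.195 and 1.49 CPM (8 and 63 reads). Most of the sum of 62.0 and 12.9 CPM came from *Eng* (61.6 and 11.2 CPM), a TGF-β co-receptor that mesenchymal cells also make. No erythroid marker of 6 was above the limit in both libraries. The stromal lists were split. Of 8 fibroblast markers 6 were above the limit in both libraries (4901 and 3625 CPM in sum), led by *Col1a2* (2714 and 2620 CPM), *Col1a1* (1166 and 584 CPM) and *Dcn* (879 and 267 CPM). *Pdgfra* had 2.03 and 2.71 CPM, *Dpt* 7 and 6 reads, *Thy1* 9 and 0 reads, and *Pi16* was at 0 in both. Of 6 perivascular and marrow stroma markers 5 were above the limit in both (630 and 731 CPM). Most of this came from *Cspg4* (538 and 619 CPM), while *Vcam1* had 35.6 and 14.9 CPM and *Lepr* 1 and 5 reads. The part of stromal cells in the chemokine levels was not tested. In RNA from whole colonies, few expressing cells and little RNA per cell cannot be told apart.

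Of the 42 genes, 14 lay above 3 reads in both libraries, against 67.4% of all genes listed (15929 of 23628). They comprised 9 ligands, 3 typical receptors and 2 atypical receptors. Another 6 passed the limit in 1 library only, and 22 passed it in neither. The median of the 42 mean levels was 0.0293 CPM, beside 1.63 CPM over all genes. Around the limit, *Ackr4* with 10 and 5 reads was the lowest gene inside it, and *Cxcr6* with 4 and 2 reads and *Ccl2* with 4 and 1 lay just outside. The family thus sat low in these libraries, and 6 of its genes reached 1 CPM in both. Of all 23628 genes, 12305 reached 1 CPM in replicate 1 and 12689 in replicate 2. Over all genes, those at 1 CPM in both were not counted.

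**Figure D1:**
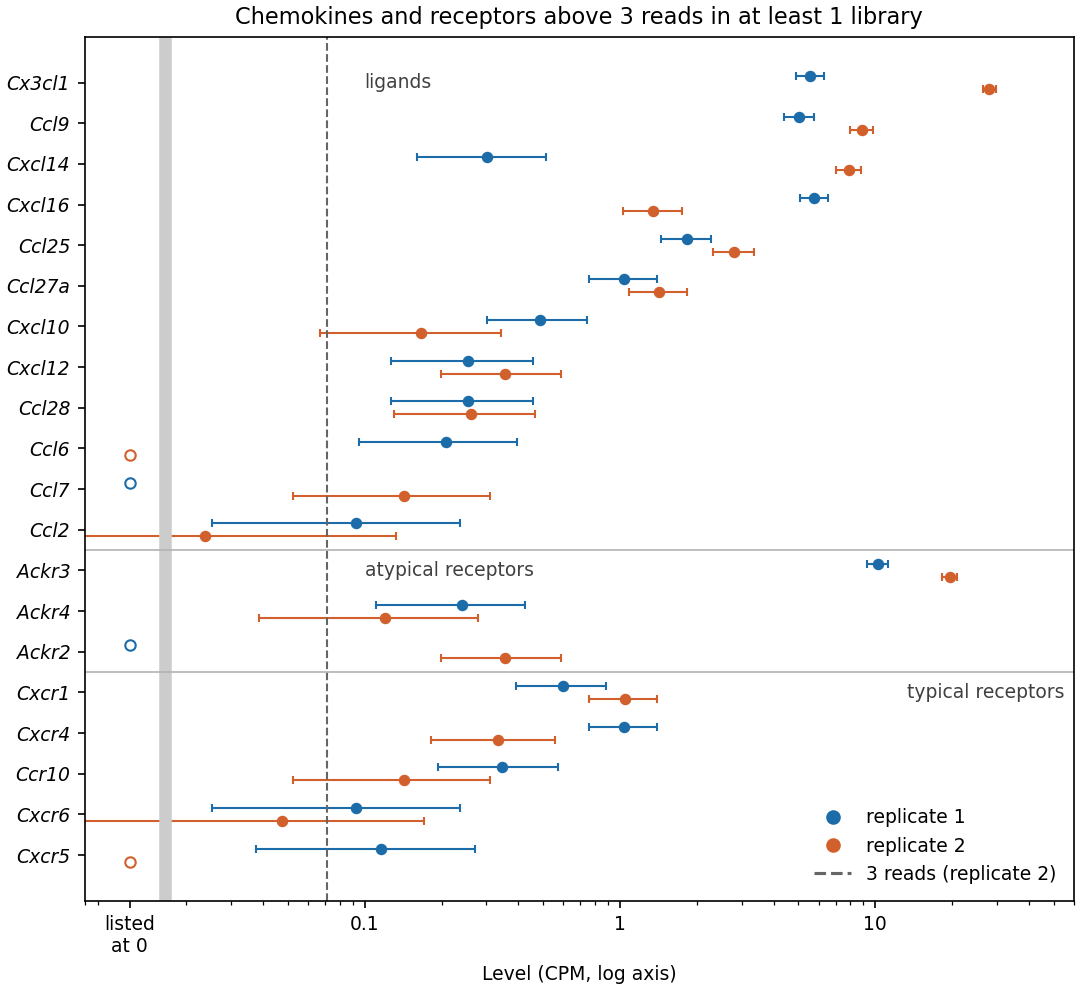
Level in CPM (log axis) of the 20 chemokine and receptor genes above 3 reads in at least 1 library. Points are the libraries, bars are 95% Poisson intervals of the read count, open points are listed at 0 and the dashed line marks 3 reads in replicate 2 (0.0712 CPM). *Cx3cl1* and *Ackr3* stand highest, and *Cxcl14* has the widest gap between the libraries.

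*Cx3cl1* encodes fractalkine, a chemokine held on a mucin stalk in the membrane and shed from it by the proteases Adam10 and Adam17. Replicate 1 gave 5.57 CPM (241 reads) and replicate 2 gave 28.0 CPM (1182 reads). The mean of 16.8 ± 15.9 CPM (SD, n = 2, as for all later means) made it the highest gene of the family and number 6172 of all genes by mean level. Replicate 2 was 5.04-fold higher, with a 95% counting interval of 4.38 to 5.81. This and all later intervals of a fold come from the reads of the 2 libraries by the exact binomial method, cover counting error only and compare these libraries, not conditions. The gene lies on chromosome 8 from 94772009 to 94782427 (GRCm38, plus strand).

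*Cxcl16* encodes the other membrane-anchored chemokine, which is shed by the same proteases. Its level was 5.78 CPM (250 reads) in replicate 1 and 1.34 CPM (57 reads) in replicate 2, with a mean of 3.56 ± 3.13 CPM. Here replicate 1 was the higher, by 4.30-fold (3.19 to 5.80). The log2 ratio of *Cxcl16* to *Cx3cl1* was thus 0.05 in replicate 1 and -4.38 in replicate 2, a ratio within each library that scaling does not touch. The sheddases were detected in both libraries, *Adam10* at 21.5 and 77.1 CPM and *Adam17* at 27.1 and 33.3 CPM. *Cxcl16* lies on chromosome 11 from 70453983 to 70459984 (minus strand), and its exons overlap *Zmynd15* on the other strand, which had 0.624 and 0.318 CPM.

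*Cxcl14*, a homeostatic chemokine of skin and other epithelia whose receptor is not settled, differed most between the libraries. It had 0.30 CPM (13 reads) in replicate 1 and 7.88 CPM (332 reads) in replicate 2, so its mean of 4.09 ± 5.36 CPM stands for neither library. The fold was 26.2, with an interval of 15.1 to 49.8. *Cxcl14* lies on chromosome 13 from 56288643 to 56296551 (minus strand).

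*Cxcl12*, the stromal chemokine that holds blood progenitors in the marrow, was low. It had 0.254 CPM (11 reads) and 0.356 CPM (15 reads), a mean of 0.305 ± 0.0719 CPM, and the interval of the fold (1.40, 0.601 to 3.37) holds 1. *Cxcl10*, an interferon-induced ligand that attracts T cells, had 0.485 CPM (21 reads) in replicate 1 and 0.166 CPM (7 reads) in replicate 2, 2.92-fold higher in replicate 1 (1.20 to 8.14). Its exons overlap *Art3* on the opposite strand (0.231 and 0.759 CPM). *Cxcl9*, also interferon-induced, was at 0 in both. The neutrophil-attracting ELR ligands gave next to nothing, as *Cxcl1*, *Cxcl3*, *Cxcl5* and *Cxcl15* were at 0 in both libraries and *Cxcl2* had 1 read in replicate 1. *Cxcl17*, a mucosal gene, had 1 read in replicate 2.

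Of the 13 CC ligands, 4 were above the limit in both libraries. *Ccl9*, an inflammatory ligand that acts on myeloid cells and osteoclast precursors and has no direct human counterpart, led them with 5.04 CPM (218 reads) in replicate 1 and 8.87 CPM (374 reads) in replicate 2. Its mean was 6.95 ± 2.71 CPM, and replicate 2 was 1.76-fold higher (1.49 to 2.09). The gene lies on chromosome 11 from 83572919 to 83578636 (minus strand).

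The other 3 detected CC ligands are homeostatic chemokines of epithelia. *Ccl25*, which guides T cells to thymus and gut, had 1.83 and 2.81 CPM (79 and 118 reads), a mean of 2.32 ± 0.687 CPM. *Ccl27a*, a skin chemokine, had 1.04 and 1.42 CPM (45 and 60 reads), a mean of 1.23 ± 0.270 CPM. *Ccl28*, which attracts antibody-secreting cells to mucosa, had 11 reads in each library, or 0.254 and 0.261 CPM. Replicate 2 exceeded replicate 1 by 1.53-fold for *Ccl25* (1.14 to 2.07) and 1.37-fold for *Ccl27a* (0.915 to 2.06). Reads of 2 of these genes are less sure than their number implies. *Ccl25* overlaps exons of *Elavl1* (46.6 and 64.9 CPM) and *Ccl27a* those of *Il11ra1* (30.6 and 26.7 CPM), both on the opposite strand, and whether reads were assigned by strand is not given in the sources used here. *Ccl27a* also has a near-identical copy, *Ccl27b*, with which reads can be shared.

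Inflammatory CC ligands other than *Ccl9* were at or near 0. *Ccl6*, a close neighbour of *Ccl9* on chromosome 11 (83587882 to 83593087), had 9 reads (0.208 CPM) in replicate 1 and was at 0 in replicate 2, which is at least 2.92-fold lower when the 0 is set to 3 reads. *Ccl7*, a monocyte chemoattractant, had 6 reads (0.142 CPM) in replicate 2 and 0 in replicate 1, at least 2.05-fold lower. *Ccl2*, the main monocyte chemoattractant, had 4 reads and 1 read. *Ccl3*, *Ccl4*, *Ccl5* and *Ccl8*, together with the lymphoid ligands *Ccl19* and *Ccl22*, were at 0 in both libraries. *Ccl19* has near-identical copies in the mouse genome, so an assignment of its reads elsewhere cannot be told apart from their absence.

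Since inflammatory chemokine genes are classic targets of NF-kB and interferon factors, their promoters were searched for the letters of an NF-kB site (GGG, any 2 bases, then TTTCC) and of an interferon response element (GAAA, any 2 bases, then GAAA) on both strands. The promoters are RefSeq sequences of GRCm38.p6, from 250 bases before to 50 bases after the start of each gene, and 31 of the 42 genes had such an entry. The NF-kB letters stood in 4 of the 31, beside 1.63% of all 32851 promoters, and the interferon letters in 3, beside 3.44%. The 7 windows of 30 bases below are shown because genes with the same letters lay at both ends of the measured range. Capitals mark the searched letters, and all windows read 5′ to 3′ on the strand of the gene.
*Cxcl3*, chr5:90786018-90786047 (+): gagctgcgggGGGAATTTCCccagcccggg
*Cxcl1*, chr5:90891164-90891193 (+): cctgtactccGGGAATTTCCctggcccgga
*Cxcl2*, chr5:90903792-90903821 (+): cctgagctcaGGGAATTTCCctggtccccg
*Ccl9*, chr11:83578652-83578681 (-): tttgaactttGGAAAGCCCCaagtcacctt
*Ccl19*, chr4:42756554-42756583 (-): ttttgggacaGAAAGTGAAAgctcaaggca
*Cxcl10*, chr5:92349083-92349112 (-): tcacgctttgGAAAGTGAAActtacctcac
*Cxcl14*, chr13:56296704-56296733 (-): gtgtccacagGAAACAGAAAagcagcaccc

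In the neighbouring ELR genes *Cxcl3*, *Cxcl1* and *Cxcl2* the capitals spell the same 10 bases, beginning 73, 71 and 97 bases before the gene start. *Cxcl1* and *Cxcl2* each held a further match in the same promoter. In *Ccl9* the match lies on the opposite strand, 35 bases before the start. The genes that hold the NF-kB letters ran from 0 reads in both libraries (*Cxcl1* and *Cxcl3*) to 218 and 374 reads (*Ccl9*), and those with the interferon letters from 0 reads (*Ccl19*) to 13 and 332 reads (*Cxcl14*). Of these, *Cxcl10* was higher in replicate 1 and *Cxcl14* in replicate 2. A match describes letters in a window and shows no binding.

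Among the typical receptors, which signal through G proteins, 3 of 13 were above the limit in both libraries. *Cxcr1*, a receptor of ELR ligands known from neutrophils, was the highest by mean, with 0.601 CPM (26 reads) in replicate 1 and 1.04 CPM (44 reads) in replicate 2. Its mean was 0.822 ± 0.313 CPM and the fold 1.74 (1.05 to 2.94). *Cxcr4*, the signalling receptor of Cxcl12, had 1.04 CPM (45 reads) in replicate 1 and 0.332 CPM (14 reads) in replicate 2, 3.13-fold higher in replicate 1 (1.69 to 6.18), with a mean of 0.686 ± 0.50 CPM. The order of *Cxcr1* and *Cxcr4* thus differed between the libraries, and their means lay within the SD of either gene. *Ccr10*, the receptor of Ccl27 and Ccl28, had 0.347 and 0.142 CPM (15 and 6 reads), and the interval of its fold (2.43 higher in replicate 1, 0.893 to 7.66) holds 1.

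The remaining typical receptors are mostly leukocyte genes. *Cxcr5*, a B cell receptor, had 5 reads in replicate 1 only, and its exons overlap *Bcl9l* on the opposite strand (90.7 and 113 CPM). *Cxcr6*, the receptor of Cxcl16, had 4 and 2 reads. *Xcr1*, a dendritic cell receptor, had 3 reads in replicate 2, and *Ccr7*, which guides cells to lymph nodes, 2 reads in replicate 1. *Ccr1*, *Ccr2*, *Ccr9*, *Cx3cr1* and *Cxcr2* were at 0 in both and so were not detectable at this depth.

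*Ackr3*, the scavenger of Cxcl12 formerly called Cxcr7, stood far above every other receptor. Replicate 1 gave 10.3 CPM (444 reads) and replicate 2 gave 19.6 CPM (825 reads). The mean was 14.9 ± 6.59 CPM, number 6610 of all genes. Replicate 2 was 1.91-fold higher (1.70 to 2.15). *Ackr3* made up 80.5% and 90.3% of the receptor CPM of replicates 1 and 2. The gene lies on chromosome 1 from 90203980 to 90216751 (plus strand).

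The other atypical receptors were at the edge of detection. *Ackr4*, a scavenger of Ccl19, Ccl21 and Ccl25, had 0.240 and 0.120 CPM (10 and 5 reads), and its exons overlap *Acad11* on the opposite strand (32.5 and 27.5 CPM). *Ackr2*, which clears inflammatory CC ligands, was at 0 in replicate 1 and had 15 reads (0.356 CPM) in replicate 2, at least 5.13-fold higher. *Ackr1*, the Duffy antigen of red cells and venules, was at 0 in both libraries.

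Levels of different genes were compared per length, as CPM per kilobase of exon. On that scale *Ackr3* ranked highest of the 14 detected genes, with 3.06 in replicate 1 and 5.85 in replicate 2. *Cx3cl1* came next (1.42 and 7.14), followed by *Ccl9* (1.65 and 2.91), *Cxcl14* (0.164 and 4.31) and *Cxcl16* (1.91 and 0.444). The order of the top 2 turned with the library, since the log2 ratio of *Cx3cl1* to *Ackr3* per kilobase was -1.11 in replicate 1 and 0.29 in replicate 2. *Cxcl12*, with a long exonic sequence of 8176 bases, fell to rank 13 (0.0311 and 0.0435), between *Ccl28* and *Ackr4*. Among these 5 genes, neighbours in the order differed in mean by less than the SD of the more variable gene. Per kilobase of the longest coding transcript, which omits other exons, *Cx3cl1* ranked 1, *Ackr3* 2, *Ccl25* 5 and *Cxcl16* 7.

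Of the 9 detected ligands 7 were then set beside a receptor known to bind them, on the same per-kilobase scale within each library. *Cxcl14*, whose receptor is not settled, and *Cxcl10*, whose receptor was not analysed here, were left out. In the Cxcl12 axis the receptors exceeded the ligand on this scale. *Ackr3* was 98.6-fold and 134-fold above *Cxcl12* in replicates 1 and 2, and *Cxcr4* was 18.5-fold and 4.22-fold above it. In replicate 2 the order of *Cxcr4* and *Cxcl12* rests on the lengths, as they had 14 and 15 reads (0.332 and 0.356 CPM). Per kilobase of the longest coding transcript *Cxcr4* was 12.8-fold and 2.91-fold above *Cxcl12*. *Ackr3* exceeded *Cxcr4* by 5.33-fold and 31.8-fold. The signalling and the scavenging receptor of this ligand thus differed in the same direction in both libraries.

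For the highest ligands the relation was the opposite, with ligand in both libraries and no signalling receptor above the limit in both. Fractalkine has *Cx3cr1* as its receptor, which was at 0, and with 3 reads in its place *Cx3cl1* was at least 92.1-fold and at least 452-fold higher. *Ccl9* was likewise at least 67.6-fold and 116-fold above *Ccr1*, and *Ccl25* at least 36.5-fold and 54.3-fold above *Ccr9*. *Cxcl16* was 39.9-fold above *Cxcr6* in replicate 1, a ratio against 4 reads, and at least 12.1-fold in replicate 2.

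Ccr10 and both its ligands were detected, and the scavenger Ackr4 was detected with *Ccl25* among its ligands. *Ccl27a* was 2.17-fold and 7.23-fold above *Ccr10*, while *Ccr10* was 3.83-fold and 1.53-fold above its second ligand *Ccl28*. *Ccl25* was 5.53-fold and 16.9-fold above *Ackr4*. These ratios rest on 5 to 15 reads for the receptor, and *Ccl27a*, *Ccl25* and *Ackr4* carry the overlaps given above. They also rest on the length used, since most exonic bases of *Ccl25* and *Ccl27a* lie outside the longest coding transcript. Per kilobase of that transcript, *Ccl25* was 17.3-fold and 52.9-fold above *Ackr4* and at least 130.0-fold and 194-fold above *Ccr9*, and *Ccl27a* was 6.13-fold and 20.4-fold above *Ccr10*. On that length *Ccr10* was 2.95-fold and 1.18-fold above *Ccl28*. In CPM without a length, *Ccl28* was the higher of the 2 in replicate 2 (0.261 against 0.142 CPM).

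**Figure D2:**
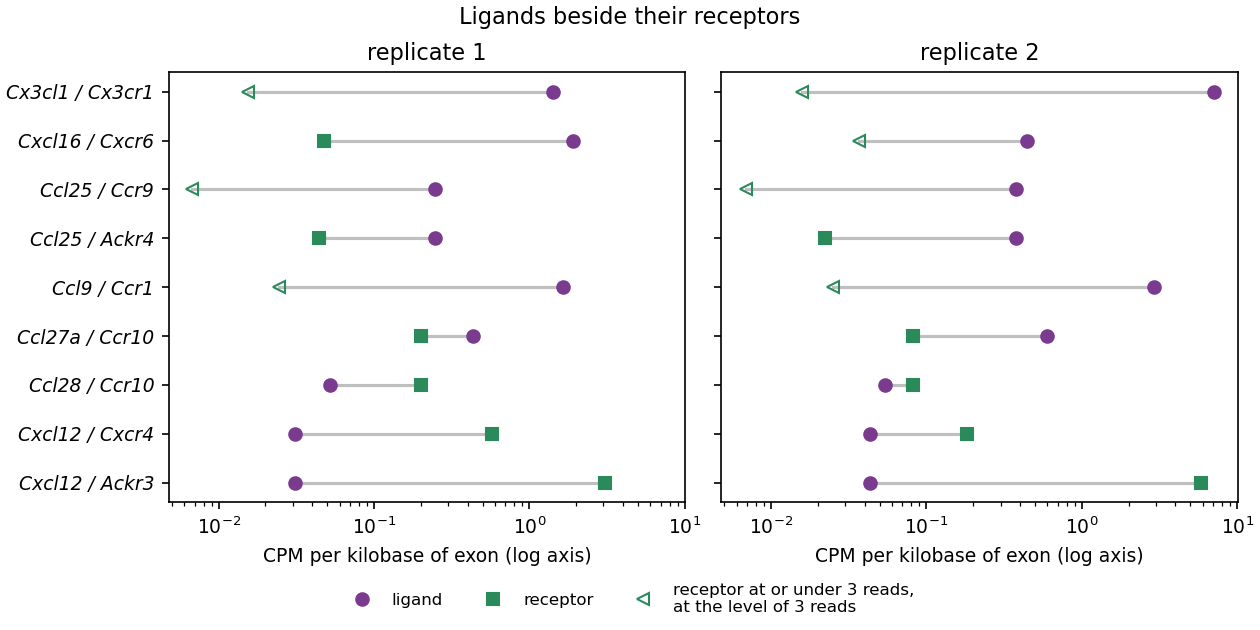
CPM per kilobase of exon (log axis) of 9 ligand and receptor pairs, with replicate 1 at left and replicate 2 at right. Circles are ligands, squares receptors, and open triangles receptors at or under 3 reads, drawn at the level of 3 reads. On this scale receptors exceed the ligand for *Cxcl12* and *Ccl28*, and ligands exceed the receptor in the other 6 pairs. Before division by length, *Ccl28* (0.261 CPM) lay above *Ccr10* (0.142 CPM) in replicate 2, and *Cxcl12* (0.356 CPM) above *Cxcr4* (0.332 CPM).

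Summed over genes, the ligands had 20.9 CPM in the first library and 51.3 CPM in the second (36.1 ± 21.5 CPM). The 5 highest ligands held 88.7% and 95.3% of this, and *Cx3cl1* alone 26.7% and 54.6%. Without *Cx3cl1* the ligand sums were 15.3 and 23.3 CPM. The receptors summed to 12.7 and 21.7 CPM, a mean of 17.2 ± 6.33 CPM, of which typical receptors held 2.24 and 1.64 CPM and atypical receptors 10.5 and 20.0 CPM. Without *Ackr3* all receptors together came to 2.48 and 2.11 CPM. The log2 ratio of summed ligands to summed receptors was 0.71 in replicate 1 and 1.24 in replicate 2, a mean of 0.98 ± 0.38, so ligand CPM exceeded receptor CPM in both libraries.

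The libraries are of 1 condition, and their difference gives the error on these levels. On the log2(CPM + 0.1) scale, which understates the change of low genes, 2 of the 14 detected genes were more than 2-fold higher in replicate 2, *Cxcl14* by 4.32 and *Cx3cl1* by 2.31, where 12.1% of all genes above the limit in both libraries passed (1932 of 15929). In the other direction, 3 were more than 2-fold lower in replicate 2 on this scale, *Cxcl16* at -2.03, *Cxcr4* at -1.40 and *Cxcl10* at -1.14, where 5.09% of all genes passed (810). With counts this small, neither number is a result about the family. The median log2 ratio was 0.39 over the 14 genes and 0.28 over all genes, and the latter became 0.09, 0.01 and -0.03 when the 10 highest genes were left out of the total, by trimmed means of log ratios and by upper quartiles. Of the 14 genes only *Ccl28*, at 0.03 here, changed sign under these scalings. The 10 highest genes took 43.4% and 34.7% of the CPM of replicates 1 and 2.

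**Figure D3:**
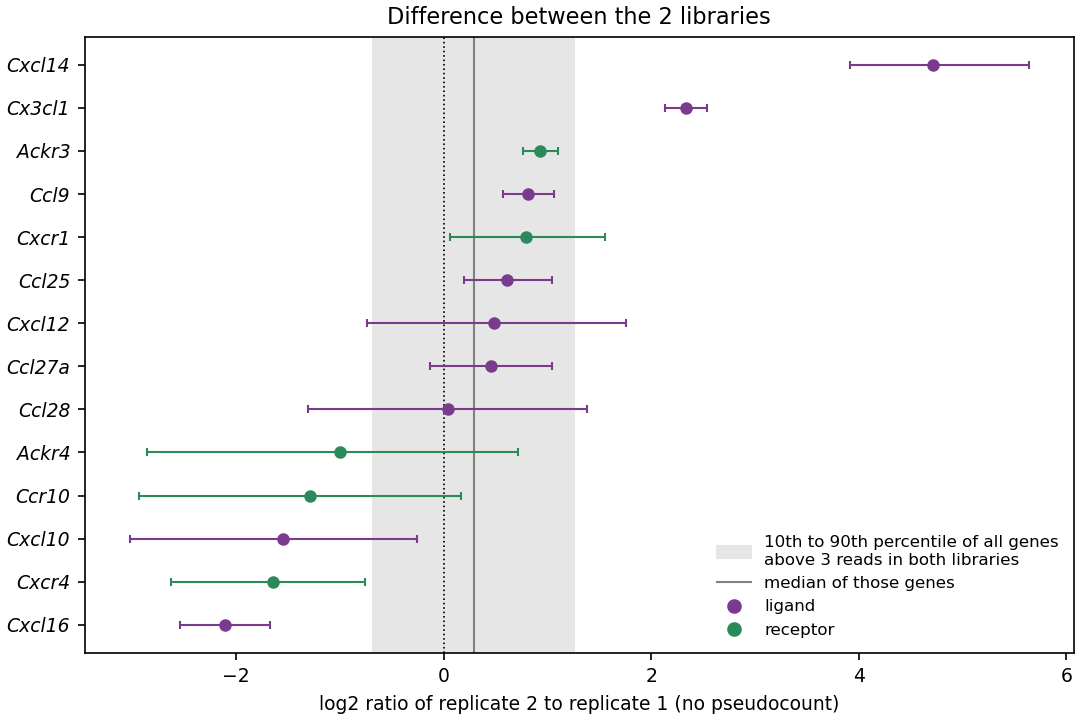
Log2 ratio of replicate 2 to replicate 1, without a pseudocount, for the 14 genes above 3 reads in both libraries. Bars are 95% counting intervals, the grey band spans the 10th to 90th percentile of all genes above 3 reads in both (-0.68 to 1.26) and the grey line their median (0.29). *Cxcl14* and *Cx3cl1* lie to the right of the band, 7 genes inside it, and 5 to its left.

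On the deposited CPM, the spread between libraries exceeded counting error for most of the higher genes. The counting interval of the fold lay above 1 for 6 genes (*Cxcl14*, *Cx3cl1*, *Ackr3*, *Ccl9*, *Cxcr1*, *Ccl25*), below 1 for 3 (*Cxcl16*, *Cxcr4*, *Cxcl10*) and held 1 for 5. These intervals were not recomputed under other scalings, and the median log2 ratio of all genes on this scaling was 0.29, not 0. Against that median the split would differ. The lower ends for *Cxcr1* (log2 of 0.07) and *Ccl25* (0.19) lay below it, and so did the upper end for *Ccr10* (0.16). The ratios of *Ackr3*, *Ccl9*, *Cxcr1* and *Ccl25* all lay within the band of the middle genes shown in the plot of log2 ratios.

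Related genes outside the symbol pattern add to the picture. Of 9 listed family members and chemotactic genes, 5 were above the limit in both libraries. *Mif*, a cytokine that can bind Cxcr2 and Cxcr4, had 154 and 144 CPM, above every chemokine. *Cmklr1*, the receptor of chemerin, had 3.84 and 11.2 CPM, whereas *Rarres2*, which encodes chemerin, had 0.578 and 0.0810 CPM. *Gpr182*, a scavenging chemokine receptor of endothelium, had 0.277 and 0.973 CPM. The platelet chemokines *Pf4* and *Ppbp* were at 0 in both.

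Of 24 genes that receptors use for signals inside the cell, 18 were above the limit in both libraries, a share near the 67.4% of all genes, with 669 and 909 CPM in sum. The G protein subunits *Gnai2* (221 and 268 CPM) and *Gnb1* (150 and 200 CPM) and the GTPase *Rac1* (126 and 155 CPM) were the highest. The arrestins, through which Ackr3 traffics, had 1.83 and 3.35 CPM for *Arrb2* and 0.30 and 1.26 CPM for *Arrb1*. The leukocyte-restricted *Rgs1*, *Rac2* and *Vav1* were at 0 in both. More than 2-fold higher in replicate 2 were 7 of the 18 and lower 0, beside the 12.1% and 5.09% of all genes. *Rgs16*, which shortens Gαi signals, was at 0 in replicate 1 and 6.03 CPM in replicate 2.

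Of 14 genes for the shedding, clipping and matrix retention of ligands, 10 were above the limit in both libraries, again near the 67.4% of all genes. The 14 summed to 2443 and 2945 CPM, most of it from *Hspg2*. The heparan sulfate proteoglycans that hold chemokines in place were led by *Hspg2*, or perlecan, at 1360 and 1495 CPM, and *Sdc4* at 233 and 168 CPM. *Mmp2*, which clips Cxcl12, had 372 and 477 CPM. *Dpp4* and the neutrophil proteases *Ctsg* and *Elane* were at 0 in both. More than 2-fold higher in replicate 2 were 2 of the 10, *Adam10* and *Mmp14* (84.6 and 234 CPM), and 0 were lower, beside the 12.1% and 5.09% of all genes.

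Of 18 NF-kB and cytokine genes, inputs known to act upstream of inflammatory chemokines, 15 were above the limit in both libraries, beside 67.4% of all genes, among them *Rela* (45.3 and 40.0 CPM), *Nfkb1* (44.3 and 40.0 CPM) and the receptors *Tnfrsf1a* (86.8 and 101 CPM) and *Il1r1* (14.8 and 28.8 CPM). The cytokines *Tnf* and *Il1b* were at 0 in both, while *Il1a* was just above the limit in both (0.154 and 0.0729 CPM, 6.7 and 3.1 reads). Of these 15, 1 was more than 2-fold higher in replicate 2 and 0 were lower, beside 12.1% and 5.09% of all genes. It was *Lifr* (2.43 and 5.69 CPM), a subunit of the receptor for LIF, which the medium contained. *Il6*, outside the 15, had 1 and 9 reads.

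Of 12 interferon response genes, 10 were above the limit in both libraries, beside 67.4% of all genes. Like *Cxcl10*, *Ifit3* (47.1 and 7.92 CPM) and *Ifit2* (7.49 and 3.68 CPM) were more than 2-fold lower in replicate 2, while *Isg15* (0.439 and 1.42 CPM) and *Irf1* (1.0 and 2.19 CPM) were more than 2-fold higher. These are 2 genes each way of the 10, beside 12.1% of all genes higher and 5.09% lower, and they share no direction.

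**Figure D4:**
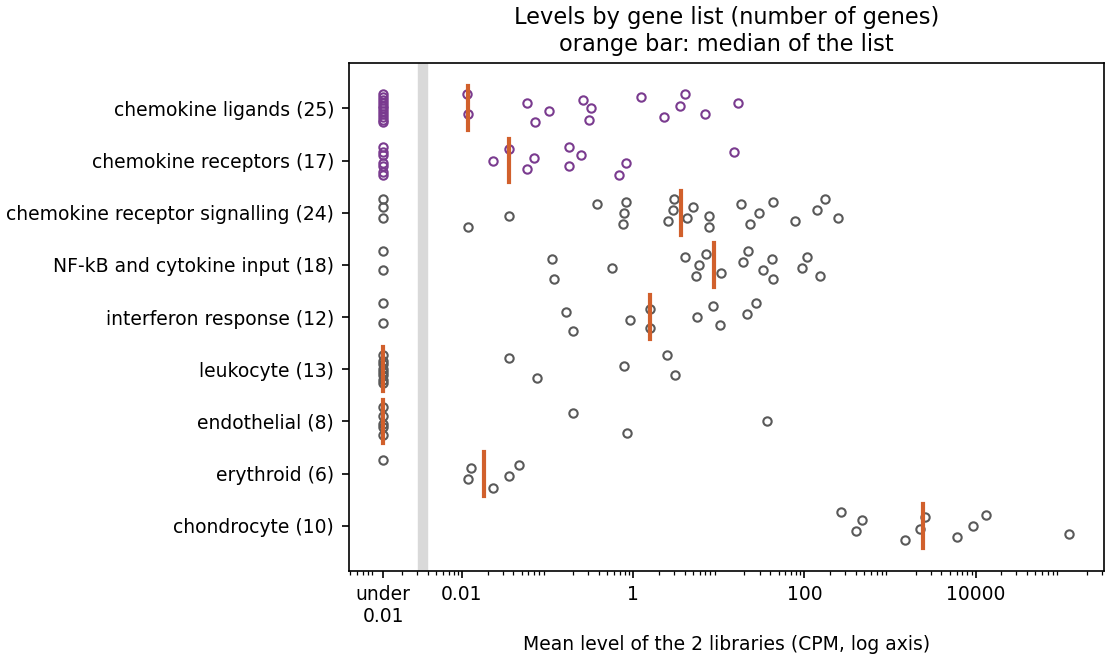
Mean level of the libraries in CPM (log axis) for each gene of 9 lists, with the number of genes in brackets. Circles are genes, genes under 0.01 CPM are drawn at the left, and orange bars are medians. By their medians, chemokine ligands and receptors lie below the signalling and NF-kB lists and well below the chondrocyte markers (median 2427 CPM). Single genes of the chemokine, signalling and NF-kB lists overlap in level.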

How the data were processed

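Per the labels, poly(A) RNA of 2 samples was made into stranded libraries and sequenced as single-end reads of 50 bases. The authors aligned them to GRCm38 with GENCODE M25 by STAR 2.7.3a, assigned them to genes by expectation maximisation (Partek Flow, release 10.0.21.0801) and deposited CPM values per gene. The constant of 0.0001 was subtracted. Of the low values above 0 (5435 and 4972), 72.1% and 71.4% were whole multiples of what 1 read is worth, within 0.1 read. Of the chemokine genes 38 of 42 were whole in both libraries, a count on another base that includes the 18 at 0. Among the 14 detected chemokine genes 10 were whole in both. As the rest were not whole, no count model was fitted and reads are given rounded.

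With 1 condition no test was possible, and levels are given as mean ± SD (n = 2). According to the study's methods pups were kept apart as biological replicates, but the labels do not tie the libraries to pups, so the spread may in part be technical. Coordinates and lengths come from GENCODE M21 on the same build, promoters from RefSeq. Of 31 promoters, 29 ended in the sequence of a GENCODE transcript of their gene, all but those of *Ccl3* and *Cxcr1*. Every gene of the pattern above 3 reads in at least 1 library was named. Some items of the lists are not reported here. The genes, lists and motifs were chosen with earlier results of these data known. Computations used numpy 2.4.6, scipy 1.17.1, pandas 2.3.3 and matplotlib 3.10.9 under Python 3.11.15. The size of 1 read and, for genes at a mean of 1 CPM or more, the 2-fold calls were tested on simulated data with counting error only. Intervals, pair ratios and the motif search were not tested in this way. Alternatives covered the read limit, scaling, pseudocount, filter, gene length, overlapping genes and each library.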

Additional observations from a re-analysis of the deposited data

How the results depend on the processing

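The counts, sums, ranks, ligand to receptor ratios and the median ratio of the libraries were recomputed under alternatives, 79 times in all for 30 results. Counts, sums and ranks have no direction to change, and of the ratios 0 changed direction. For the ligand to receptor pairs the only alternative was the coding transcript length. CPM without a length was not among their settings, and on it *Ccl28* lay above *Ccr10* and *Cxcl12* above *Cxcr4* in replicate 2. Of the 79 recomputed values 54 stayed within the spread of the libraries or within 1.5 times a count, or kept their rank, and 25 moved. Folds of single genes between libraries (other than their sign under scaling) and counts of other gene lists were not recomputed. The count of 14 genes above 3 reads in both libraries became 6 at a minimum of 1 CPM and 9 without genes whose exons overlap another gene, and was 15 above 1 read and 11 above 10 reads. With a per-million total that omits the 10 highest genes, the receptors summed to 27.8 CPM and the ligands to 57.6 CPM. The 2 genes more than 2-fold higher in replicate 2 became 4 with no filter on low values. The 3 lower became 1 with a pseudocount of 1 CPM, 5 with no filter and 1 at a mean of at least 1 CPM. They became 4 with a pseudocount of 0.01 CPM and under each of the other scalings. Dividing by exonic length moved the rank of 7 of the 14 genes, as did dividing by the longest coding transcript. With the latter, 4 of 9 ligand to receptor log2 ratios moved by more than their SD, to 7.31 for *Ccl25* to *Ccr9*, 4.92 for *Ccl25* to *Ackr4*, 3.49 for *Ccl27a* to *Ccr10* and -6.43 for *Cxcl12* to *Ackr3*. With a single library in place of both, the count ran from 16 to 18, the ligand sum from 20.9 to 51.3 CPM, the receptor sum from 12.7 to 21.7 CPM and their log2 ratio from 0.71 to 1.24. Removal of either of 2 libraries always moves a mean by less than 1 SD, so this says nothing of stability. The single-library values of the sums and of their log2 ratio are nevertheless among the 54 that stayed. Leaving out overlapping genes, dividing by coding transcripts and, for the count of genes, leaving out a library were chosen after seeing the data. The cause of these shifts was not tested beyond what each alternative changes. Depth limits the lowest genes, and for 5 of the 14 the counting interval of the fold between libraries, on the deposited CPM, held 1. No paired analysis was possible because both libraries belong to 1 group.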
